A study of Mus musculus with 2 samples.

Results

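Mbnl2 HITS-CLIP tags were examined over 10 genes of the muscle thin filament and its anchors, chosen by name from 22284 annotated protein-coding genes: *Neb*, *Nrap*, *Nebl*, *Acta1*, *Actn2*, *Actn3*, *Tmod1*, *Tmod4*, *Lmod2* and *Capzb*. HITS-CLIP joins a protein by UV light to the RNA it touches in the tissue, trims the RNA with RNase A, pulls the protein down and sequences the short fragments, called tags, that come with it. The quadriceps came from WT mice and from *Mbnl1* KO mice (*Mbnl1*-/-, homozygous for the study's ΔE3 allele of the gene of the related protein Mbnl1), both labelled C57BL/6 and 15 to 16 weeks old. Mbnl2 was pulled down with the monoclonal antibody 3B4, and the study used RNase A at 38.6 and at 0.0386 U/ml, which the tables do not tell apart. The 3 mice of each genotype were merged into 1 table, so the spread between mice is unknown and no test between the genotypes was possible. Ratios below are *Mbnl1* KO over WT tags after division by the tags in each table, and their exact 95% intervals cover counting error only. They compare the libraries, not the genotypes.

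In the sarcomere, actin filaments are anchored at the Z-disc by alpha-actinin, run along the giant protein nebulin, and are closed at one end by capping protein and at the other by tropomodulin. Muscleblind-like proteins bind RNA at YGCY motifs (Y is C or U) and regulate alternative splicing, and they also bind 3′ UTRs. Many sarcomere transcripts are spliced differently in fetal and adult muscle, and nebulin RNA has alternatively used exons in the part that codes for its Z-disc end.

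The WT library held 343554 tags and the *Mbnl1* KO library 476543. Homopolymer-rich tags, defined here by a genomic sequence in which 1 base fills 70% or more, made up 44.0% of WT and 17.0% of *Mbnl1* KO tags on assembled chromosomes, and 1-read tags made up 79.0% and 59.5%. These shares enter every ratio through the totals: raw tag ratios were multiplied by 0.721 when all tags counted and by 0.492 without homopolymer-rich tags, so the second value is also given for genes, tag clusters and the named introns of *Neb* whose interval then includes 1, while other values by region are for all tags. All 8 genes of a list for fast skeletal muscle fibres had tags. Of the cardiac markers, *Nppa* and *Myl7* had 0, *Myh6* had 4 WT and 3 *Mbnl1* KO tags, and *Tnni3* had 1 and 0. The fast fibre list had a summed ratio of 2.52 (2.27 to 2.80; 1307 and 3292 tags per 1000000). It includes *Mb*, the myoglobin gene, known mainly from oxidative fibres, which was the only one of the 8 whose interval included 1 (1.75, 0.915 to 3.53). Summed markers of fibroblasts had 3.08 (2.59 to 3.68), those of endothelium 1.70 (1.14 to 2.56), those of slow fibres 1.34 (0.674 to 2.77) and those of leukocytes 1.04 (0.412 to 2.76). The last 3 sums join genes with ratios on both sides of 1, such as *Cdh5* (3.05) and *Pecam1* (0.811) of endothelium, *Myh7* (3.06) and *Tnni1* (0.120) of slow fibres, and *Ptprc* (0.481) of leukocytes beside *Lyz2*, with 0 and 5 tags. Adipocyte markers gave 1 WT and 18 *Mbnl1* KO tags, cardiac markers 5 and 3, and liver markers 2 and 0. The part of such cells in the ratios of the thin filament genes was not tested, and because RNA levels were not measured here, binding per RNA, RNA per cell and the number of cells cannot be told apart. The targeted gene could not check the labels: the exon of *Mbnl1* with the start codon, a stand-in for the deleted part, had 5 WT and 2 *Mbnl1* KO tags (0.288, 0.0275 to 1.76) and the next exon 0 and 4 (from 0.476), too few to separate the libraries, and the whole gene had 100 and 452 (3.26, 2.62 to 4.09).

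The clusters with the most tags on these genes lay in *Acta1*, in the 3′ UTR of *Neb* and in the 5′ UTR of *Actn2*. The sequences under the 8 clusters with the most tags are shown because they are the stretches that the ratios of single sites rest on. Each is the 30 nt around the base with the most tags, read 5′ to 3′ on the RNA strand from mm9 with T for U, and capitals mark the DNA spellings of YGCY (TGCT as well as TGCC, and also CGCT as well as CGCC), overlaps included.
*Acta1* exon 3, chr8:126417075-126417104, minus strand: TGCCatgtatgtggctatccaggcggTGCT
*Acta1* exon 7, across the stop codon, chr8:126415903-126415932, minus strand: attgtgcaccgcaaaTGCTtctaggcgcac
*Acta1* exon 5, chr8:126416575-126416604, minus strand: gaagctgTGCTatgtggccctggacttcga
*Acta1* 3′ UTR, chr8:126415714-126415743, minus strand: tatttttcaaacaaagccctgtggaaagga
*Neb* 3′ UTR, chr2:51992372-51992401, minus strand: ttaaaTGCTtctgtagtgttatgtaaccaa
*Acta1* exon 2, chr8:126417574-126417603, minus strand: gacaccatgtgcgacgaagacgagaccacc
*Acta1* exon 6, chr8:126416136-126416165, minus strand: gatcacagctctggctcccagcaccatgaa
*Actn2* 5′ UTR, chr13:12432795-12432824, minus strand: cgtctgtccatcccttgCGCTgTGCTCGCT

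Of the 11 clusters with at least 10 tags on the thin filament genes, 5 held a YGCY motif in this window (45.5%). On the opposite strand (spelled AGCA as well as GGCA, and also AGCG as well as GGCG, on the RNA strand) 6 held one (54.5%), beside 35.5% of all windows in *Acta1* coding sequence and 14.0% of the windows at clusters of all genes. The *Actn2* window was the richest, with 3 motifs. Over all such clusters on protein-coding genes, 54.5% of 2053 windows held the motif, and 71.8% of the 1509 with fewer than 50% homopolymer-rich tags. Among all 30-nt windows of the 10 genes, whether tagged or not, 34.1% of those in coding sequence, 25.9% in 3′ UTRs, 38.5% in 5′ UTRs and 26.2% in introns held it, and in *Acta1* coding sequence 43.0% did. The share at the thin filament clusters thus lay close to that of *Acta1* coding sequence as a whole, on 11 windows, of which 8 are from *Acta1*. A match is a description of these letters and not a binding site.

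The 10 genes together had 233 tags in WT and 857 in the *Mbnl1* KO (678 and 1798 per 1000000 library tags), with a ratio of 2.65 (interval 2.29 to 3.08). *Neb* and *Acta1* gave 65.0% of these 1090 tags, and the other 8 genes had a ratio of 2.44 (1.92 to 3.14). The median ratio of the 10 genes was 2.61, or 2.24 with *Lmod2*, which had no WT tag, set at a floor of 3 WT tags. Among protein-coding genes, 3881 had 20 tags or more, and their median ratio was 1.75 while the middle 50% of genes lay between 1.12 and 2.68.

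Tags on thin filament genes were therefore more frequent in the *Mbnl1* KO library, as they were on most genes with at least 20 tags (79.9% had a ratio above 1). Of the 8 thin filament genes with at least 20 tags, 6 had an interval above 1, against 38.6% of all genes with that many tags: *Actn2*, *Neb*, *Actn3*, *Nebl*, *Nrap* and *Acta1*. None had an interval below 1, against 3.84% of all genes. A ratio of at least 2 was reached by 5 of the 8, against 41.7% of all genes. An interval leaves out 1 more easily when a gene has more tags, and the genes were not matched to the background by tag number. With a minimum of 50 tags, the median ratio was 1.94 over all genes and 2.68 over the thin filament genes. *Tmod4* and *Lmod2* had fewer than 20 tags and are described by their counts.

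Without homopolymer-rich tags, the summed ratio was 1.84 (1.59 to 2.14), beside a median of 1.48 over 3301 genes. The interval lay above 1 for 5 of the 8 genes, against 26.5% of all genes, and the ratio reached 2 for 3 of the 8, against 29.2%. *Nebl* lost its interval above 1 there. *Acta1* (1.32, 1.00 to 1.75, with a lower bound of 1.001) and *Actn3* (1.93, 1.01 to 3.99) stayed above 1 by a margin that disappeared when tags on unplaced contigs were also left out, which left 3 genes, *Neb*, *Nrap* and *Actn2*. When the libraries were scaled by the median gene, *Neb* and *Actn2* had an interval above 1, against 11.8% of all genes, and *Acta1* was at 1.11 (0.840 to 1.47).

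**Figure D1:**
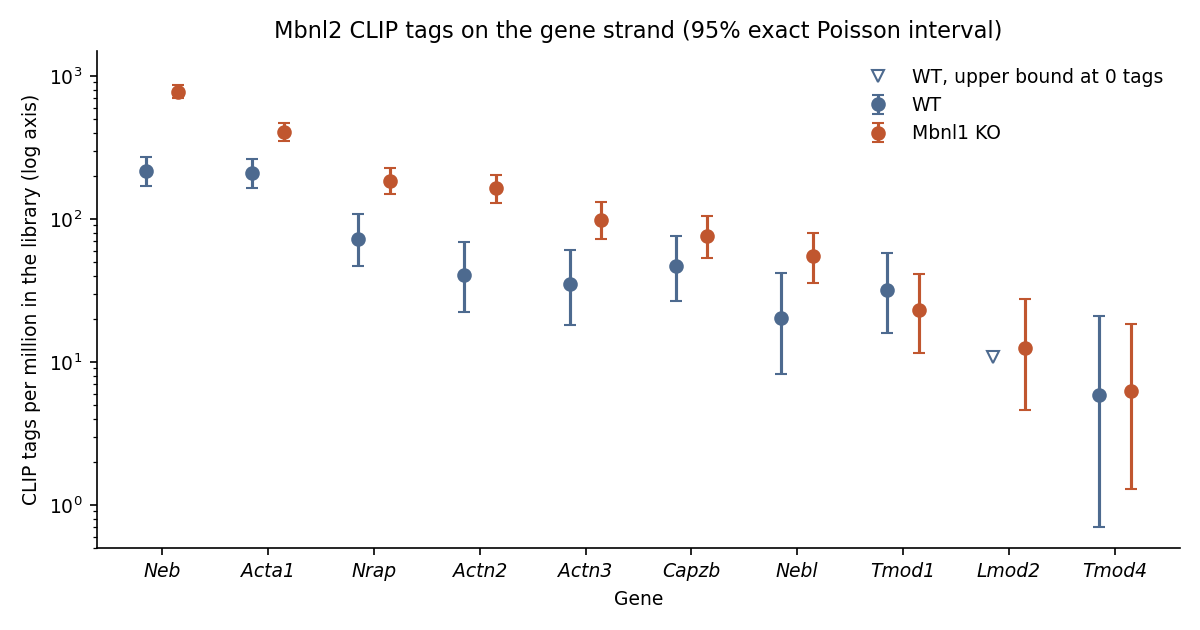
Tags per 1000000 in the WT and *Mbnl1* KO libraries for each gene on a log axis, with exact Poisson 95% intervals; the open triangle is the upper bound for *Lmod2* at 0 WT tags. *Neb* and *Acta1* lie above 200 tags per 1000000 in both libraries, and for *Tmod1* the WT point (32.0) lies above the *Mbnl1* KO point (23.1).

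**Figure D2:**
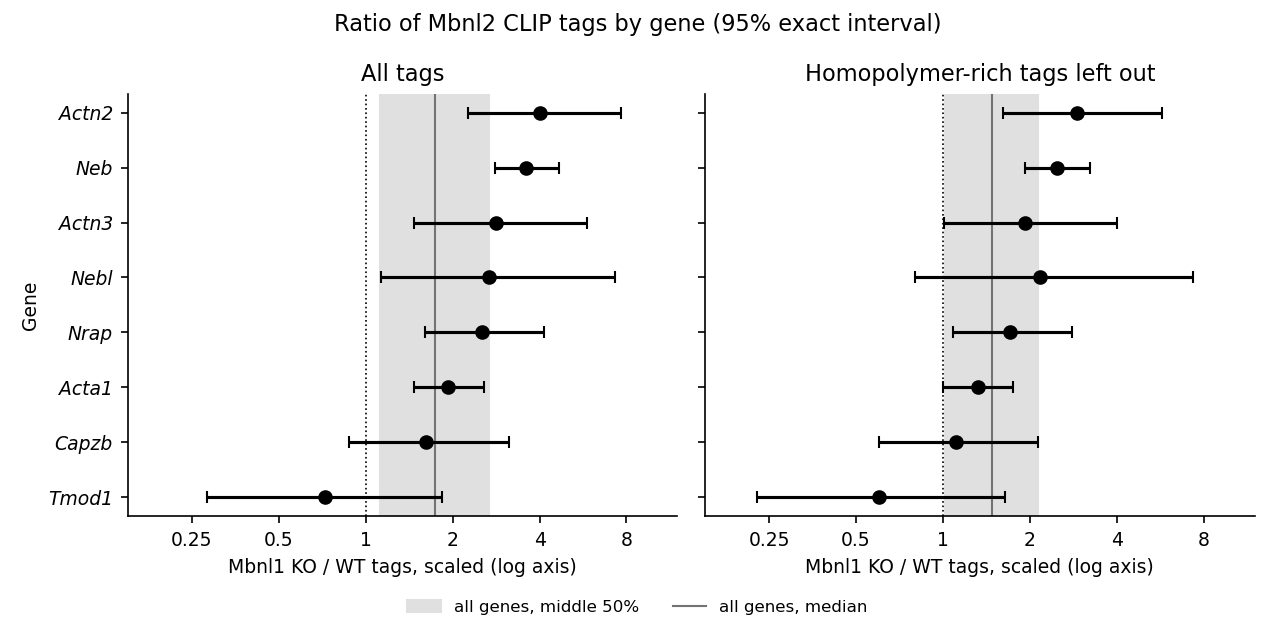
Scaled *Mbnl1* KO over WT ratio with its exact 95% interval for the 8 genes with at least 20 tags, on a log axis, for all tags and without the homopolymer-rich ones; the grey band is the middle 50% of all genes with at least 20 tags and the grey line their median. The intervals of *Neb* and *Actn2* lie above the median line of all genes in both panels.

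*Neb*, the nebulin gene (ENSMUSG00000026950, chr2:51992167-52194318, minus strand, 157 exons in the longest coding transcript), carried the most tags. It had 74 tags in WT and 369 in the *Mbnl1* KO (215 and 774 per 1000000 library tags), with a ratio of 3.59 (2.79 to 4.68) that was above that of 86.8% of all genes with at least 20 tags. Without homopolymer-rich tags the ratio was 2.47 (1.92 to 3.22). *Neb* is a long gene. Per length its exons had 4.86 WT and 15.7 *Mbnl1* KO tags per kb and 1000000 library tags, close to *Nrap* and far below *Acta1*. Its coding sequence alone had 4.66 and 13.6, against 0.439 and 1.19 for coding sequence of all protein-coding genes, tagged or not. Exon tags had a ratio of 3.23 (2.32 to 4.58) and intron tags one of 4.13 (2.79 to 6.31). The ratio of these ratios was 0.781 (0.453 to 1.33), so no difference between exons and introns was detectable at this depth.

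The tags on *Neb* were spread over the gene and were concentrated at its 3′ end. At least 1 tag fell on 28 of the 157 exons in WT and on 66 in the *Mbnl1* KO. Of 10 equal stretches of 20.2 kb, the last held 19 WT and 119 *Mbnl1* KO tags, while the other 9 held 1 to 12 WT and 12 to 45 *Mbnl1* KO tags. Every one of the 10 stretches had a ratio above 1, between 1.56 (0.761 to 3.40) in the sixth and 8.65 (1.28 to 370) in the first, which had 1 WT and 12 *Mbnl1* KO tags.

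**Figure D3:**
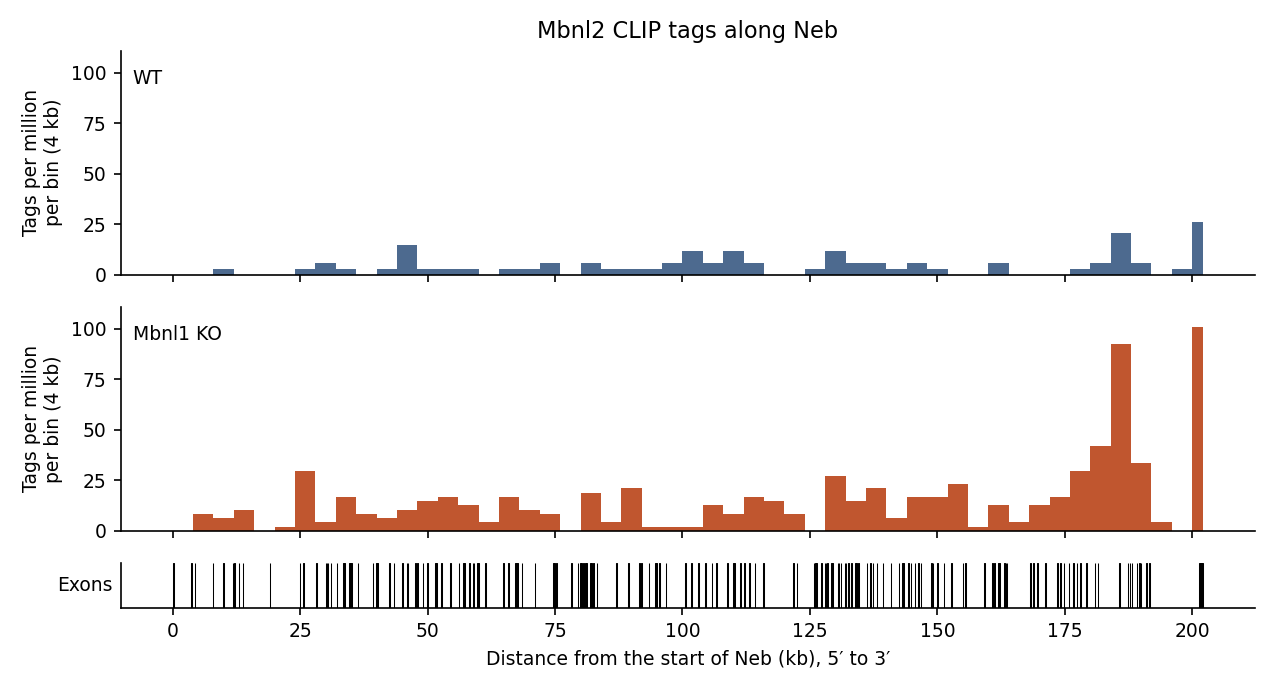
Tags per 1000000 in bins of 4 kb along *Neb*, by distance from its start in kb, for WT and *Mbnl1* KO, with the exons of the longest coding transcript below; the last bin is shorter. Tags in the *Mbnl1* KO library stand highest in the introns at about 184 to 188 kb and in the last exon.

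The last exon of *Neb*, which holds its 3′ UTR (exon 157, chr2:51992167-51992951), had 9 tags in WT and 48 in the *Mbnl1* KO, with a ratio of 3.84 (1.87 to 8.91), which did not differ detectably from the rest of the gene (ratio of ratios 1.08, 0.492 to 2.63). Its main cluster (chr2:51992367-51992411), over the *Neb* sequence shown above, held 6 tags in WT and 27 in the *Mbnl1* KO, with a ratio of 3.24 (1.31 to 9.61), or 2.21 (0.895 to 6.56) without homopolymer-rich tags, which includes 1. All 33 tags of this cluster overlapped at its peak, so in both libraries they marked the same stretch. A smaller cluster at the end of the exon (chr2:51992162-51992214), chosen after its values were seen, held 0 WT and 9 *Mbnl1* KO tags. Its ratio was 2.16 with WT set at a floor of 3 tags (exact interval from 1.42, or from 0.971, which includes 1, without homopolymer-rich tags). Per length, the 3′ UTR of *Neb* had 37.9 WT and 157 *Mbnl1* KO tags per kb and 1000000 library tags, against 4.66 and 13.6 in its coding sequence.

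The introns upstream of the last exon of *Neb* held many of its intron tags. Intron 147 (chr2:52008669-52012810) had 5 WT and 29 *Mbnl1* KO tags (ratio 4.18, 1.60 to 13.8), intron 148 had 2 and 14 (5.05, 1.16 to 45.7), and intron 143 (chr2:52016269-52016890) had 1 and 11 (7.93, 1.15 to 341). Intron 149 (chr2:52006580-52006883) had 0 WT and 8 *Mbnl1* KO tags, at least 1.92-fold higher against the floor of 3 tags (interval from 1.23). Without homopolymer-rich tags the interval stayed above 1 for intron 147 (2.85, 1.09 to 9.44) and included 1 for introns 143 (5.41, 0.787 to 233), 148 (3.44, 0.791 to 31.2) and 149 (from 0.840). These introns, named after their values were seen, lie among short exons of 93 to 105 nt that some annotated transcripts skip. Over *Neb*, 23 internal exons lie within an intron of another annotated coding transcript, and these exons with 250 nt on each side held 8 tags in WT and 62 in the *Mbnl1* KO, with a ratio of 5.59 (2.67 to 13.5). The rest of *Neb* had a ratio of 3.35 (2.56 to 4.44), and the ratio between both was 1.66 (0.746 to 4.22), which did not separate them. Around the exon at chr2:52016891-52016995 the counts were 1 and 11, and around the exon at chr2:52006487-52006579 they were 0 and 11, and in both cases none of these tags lay in the exon itself. Of the 202 intron tags of *Neb*, 49.0% lay within 250 nt of an exon, where 39.0% of its intron sequence lies.

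*Nrap* (chr19:56394525-56464527, minus strand), which codes for a nebulin-related protein of the ends of myofibrils, had 25 tags in WT and 88 in the *Mbnl1* KO, with a ratio of 2.54 (1.61 to 4.13). Without homopolymer-rich tags it was 1.71 (1.09 to 2.79). Most of its tags were intronic, 16 in WT and 52 in the *Mbnl1* KO. Exon 2 (chr19:56463880-56463974) had 0 WT and 10 *Mbnl1* KO tags, at least 2.40-fold higher against the floor of 3 tags (interval from 1.62), while exon 1 beside it had 4 and 7 (1.26, 0.321 to 5.88). Both were named after their values were seen. The annotation gives *Nrap* as a pair of overlapping gene models, which were counted as 1 gene.

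*Nebl* (chr2:17265536-17653091, minus strand), which codes for nebulette, the smaller nebulin relative known mainly from heart, had 7 tags in WT and 26 in the *Mbnl1* KO, with a ratio of 2.68 (1.13 to 7.31). All 33 tags lay in introns, and none fell on any of its 28 exons. Of these tags, 13 (1 WT and 12 *Mbnl1* KO) matched the genome exactly at another place too. The ratio was 1.68 (0.607 to 5.34) without them, and without homopolymer-rich tags it was 2.16 (0.800 to 7.32). Antisense tags on *Nebl* were about as many in all, with 19 in WT and 16 in the *Mbnl1* KO. The tags on *Nebl* thus gave no exon signal and a ratio that depended on which tags were kept.

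*Acta1* (ENSMUSG00000031972, chr8:126415669-126418651, minus strand, 7 exons), which codes for the alpha-actin of skeletal muscle thin filaments, was the most densely tagged of the 10 genes. It had 72 tags in WT and 193 in the *Mbnl1* KO, equal to 210 and 405 per 1000000 library tags. Its exons had 143 WT and 274 *Mbnl1* KO tags per kb and 1000000 library tags, against at most 5.03 and 29.0 for any other of the 10 genes. The ratio was 1.93 (1.47 to 2.57), above that of 56.4% of all genes with at least 20 tags, so *Acta1* lay near the middle of the background.

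Nearly all *Acta1* tags were exonic, 71 of 72 in WT and 189 of 193 in the *Mbnl1* KO, and all 7 exons were tagged in both libraries. Coding sequence had 56 WT and 147 *Mbnl1* KO tags (1.89, 1.38 to 2.62), and the 3′ UTR had 14 and 38 (1.96, 1.04 to 3.91). In the spliced mRNA of 1446 nt, tags covered 56.6% of positions in WT and 82.6% in the *Mbnl1* KO, without one dominant site. The 8 clusters of at least 10 tags on *Acta1* had ratios between 1.22 and 2.60, and between 0.830 and 1.77 without homopolymer-rich tags. The largest, in exon 3 (chr8:126417046-126417220), held 10 and 35 tags (2.52, 1.22 to 5.71, or 1.72, 0.834 to 3.90, without homopolymer-rich tags). The exon 7 cluster, which runs from coding sequence across the stop codon into the 3′ UTR (chr8:126415868-126416031) held 16 and 27 (1.22, 0.632 to 2.42), and the 3′ UTR cluster (chr8:126415663-126415827) held 9 and 31 (2.48, 1.15 to 5.93, or 1.69, 0.787 to 4.05, without homopolymer-rich tags). The ratio of one cluster's ratio to another's had an interval that included 1 in all 28 pairs of these 8 clusters, so no difference between sites of *Acta1* was detectable at this depth. Actin genes are close copies of each other, and 8 of the 265 tags on *Acta1* matched the genome exactly at a second place.

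**Figure D4:**
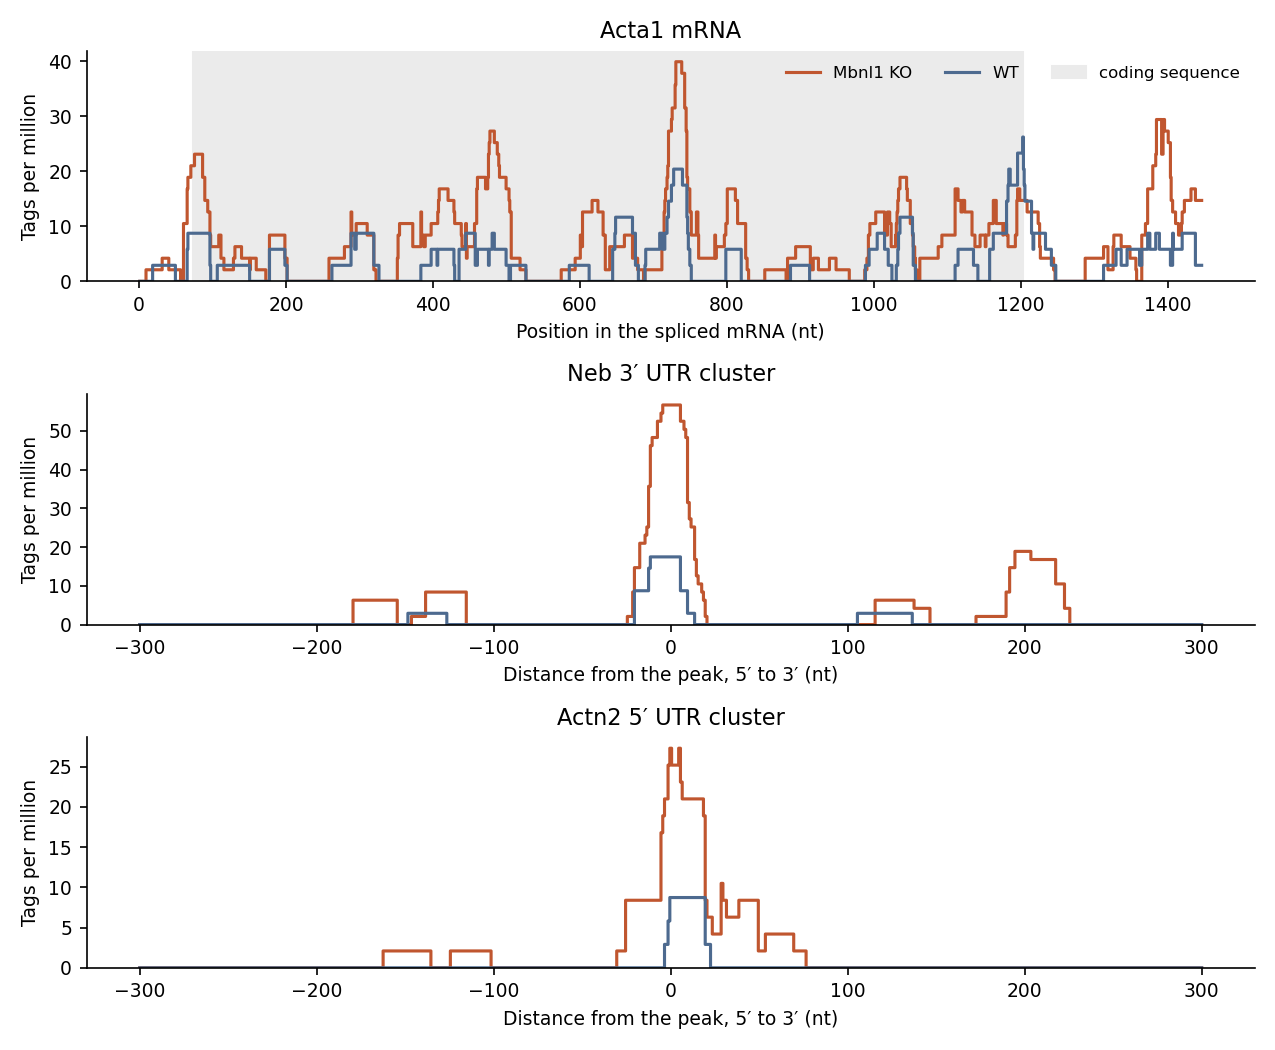
Tags per 1000000 over each position of the spliced *Acta1* mRNA (grey, coding sequence) and within 300 nt of the peaks of the *Neb* 3′ UTR and *Actn2* 5′ UTR clusters, by distance in nt from the peak, for WT and *Mbnl1* KO. Tags spread over *Acta1* in both libraries (covering 56.6% and 82.6% of positions), whereas the *Neb* cluster is a single stack reaching 17.5 tags per 1000000 in WT and 56.7 in the *Mbnl1* KO.

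The alpha-actinins crosslink actin at the Z-disc, *Actn2* in all fibres and *Actn3* in fast fibres. *Actn2* (chr13:12361693-12433027, minus strand) had 14 tags in WT and 78 in the *Mbnl1* KO, equal to 40.8 and 164 per 1000000 library tags. Its ratio of 4.02 (2.26 to 7.68) was the highest of the 8 genes with at least 20 tags and above that of 89.8% of all such genes, and it was 2.91 (1.61 to 5.72) without homopolymer-rich tags. *Actn3* (chr19:4861223-4877909, minus strand) had 12 and 47 tags, a ratio of 2.82 (1.47 to 5.85). The ratio of *Actn2* over that of *Actn3* was 1.42 (0.549 to 3.63), so the 2 alpha-actinins were not separated.

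Within *Actn2* the excess in the *Mbnl1* KO library was larger on exons than on introns, as it was over all genes. Exon tags numbered 4 in WT and 51 in the *Mbnl1* KO (9.19, 3.38 to 35.0), and intron tags 10 and 27 (1.95, 0.913 to 4.51). The ratio of these ratios was 4.64 (1.20 to 22.2), and no scaling of the libraries enters it. Over all protein-coding genes it was 2.25 (2.21 to 2.29), within the interval of *Actn2*. Of 6 genes compared in this way (*Neb*, *Nrap*, *Actn2*, *Actn3*, *Capzb* and *Tmod1*), *Actn2* was the only one whose interval left out 1, and *Neb* (0.781, 0.453 to 1.33) the only one whose interval left out the value over all genes. Without homopolymer-rich tags the values were 4.34 (1.08 to 21.1) for *Actn2*, 0.764 (0.440 to 1.31) for *Neb* and 1.76 (1.73 to 1.79) for all genes. Coding sequence of *Actn2* had 1 WT and 31 *Mbnl1* KO tags (22.3, 3.72 to 911), a ratio that rests on 1 WT tag. The 5′ UTR cluster in exon 1 (chr13:12432734-12432840), over the sequence with 3 motifs shown above, held 3 and 19 tags (4.57, 1.34 to 24.1, or 3.12, 0.917 to 16.4, without homopolymer-rich tags). This cluster made up most of the 5′ UTR tags of the 10 genes, 22 of 35. In WT 2 of the 21 exons of *Actn2* had a tag, and in the *Mbnl1* KO 13 did.

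*Actn3* had 5 WT and 27 *Mbnl1* KO coding tags (3.89, 1.48 to 12.9) and 7 and 19 intron tags (1.96, 0.788 to 5.51). Its exon and intron ratios were not separated (ratio of ratios 2.04, 0.475 to 9.46). Tags fell on 4 of its 21 exons in WT and on 11 in the *Mbnl1* KO, and none of its 3 clusters of at least 5 tags reached 10.

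The tropomodulins and leiomodins, which sit at the pointed end of actin filaments, were thinly tagged. *Tmod1* (chr4:46051807-46128904, plus strand) had 11 tags in WT and 11 in the *Mbnl1* KO, with a ratio of 0.721 (0.283 to 1.83), above that of 8.99% of all genes with at least 20 tags. It was the only gene of the 8 with a ratio under 1, and its interval includes 1. Of its tags, 10 in WT and 6 in the *Mbnl1* KO were intronic, and exon tags numbered 1 and 5. *Tmod4* (chr3:94928398-94933131, plus strand), the tropomodulin of skeletal muscle, had 2 and 3 tags (1.08, 0.124 to 12.9). *Lmod2* (chr6:24547771-24555414, plus strand), a leiomodin known mainly from heart, had 0 and 6 tags. Its ratio was 1.44 with WT set at the floor of 3 tags, and its exact interval, from 0.849, includes 1. A count of 0 in WT allows up to 8.73 tags per 1000000 by this floor, and 10.7 by the exact Poisson interval that the plot of levels shows. At this depth no difference was detectable for these 3 genes.

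*Capzb* (chr4:138748814-138847733, plus strand), the beta subunit of the capping protein that closes the barbed end, had 16 tags in WT and 36 in the *Mbnl1* KO, with a ratio of 1.62 (0.877 to 3.13). Intron tags made up 14 of the WT and 24 of the *Mbnl1* KO tags. Coding tags were found in the *Mbnl1* KO library, 5 against 0 in WT, with an interval from 0.661 that includes 1.

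The genes were also compared with each other on a measure that no scaling touches, the ratio of one gene's ratio to another's. Of the 28 pairs of the 8 genes with at least 20 tags, 9 had an interval that left out 1, with no p-value and no adjustment over the pairs. No such share was computed for pairs of other genes, so the count cannot be read as particular to these genes. The pairs were compared with all tags only. The ratio of *Neb* was 1.86 times that of *Acta1* (1.26 to 2.73), and the ratio of *Actn2* was 2.07 times that of *Acta1* (1.08 to 4.23). *Neb* and *Actn2* were also each separated from *Capzb*, at 2.21 times (1.09 to 4.34) and 2.46 times (1.00 to 6.10, with a lower bound of 1.005). *Tmod1* was separated from *Actn2*, *Neb*, *Actn3*, *Nrap* and *Acta1*, by 5.46 times (1.78 to 17.2) for *Actn2* and by 2.67 times (1.00 to 7.12, with a lower bound of 1.002) for *Acta1*. The 2 genes with the highest ratios, *Actn2* and *Neb*, were not separated from each other (1.12, 0.588 to 2.25).

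Summed over the 10 genes, tags fell on coding sequence more often than tags summed over all protein-coding genes did, which was not so for each gene. Coding sequence held 45.9% of their WT tags and 45.6% of their *Mbnl1* KO tags, against 6.14% and 10.3% over all protein-coding genes. Their 3′ UTRs held 10.7% (7.07 to 15.4) and 11.0% (8.96 to 13.3), against 16.2% and 29.5%. *Neb* and *Acta1* gave 77.3% of the coding tags and 89.1% of the 3′ UTR tags of the 10 genes. Introns held 41.6% and 39.2%, against 75.9% and 58.4%. *Nebl* (0 coding and 33 intron tags in both libraries together), *Capzb* (5 and 38) and *Tmod1* (2 and 16) had most of their tags in introns. For the 10 genes together, the shares of these regions were close in both libraries, while single genes with few tags moved more, such as *Actn2*, whose coding share was 7.14% in WT and 39.7% in the *Mbnl1* KO, and *Tmod1*, whose intron share was 90.9% and 54.5%.

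The summed ratio of the 10 genes was above 1 in coding sequence, both UTRs and introns when all tags counted, though for 3′ UTRs, 5′ UTRs and introns the interval included 1 when homopolymer-rich tags and 1-read tags were both left out. It was 2.63 (2.12 to 3.29) for coding sequence, 2.71 (1.73 to 4.40) for 3′ UTRs, 5.59 (1.98 to 21.8) for 5′ UTRs, where WT had 4 tags, and 2.50 (1.99 to 3.16) for introns. Over all protein-coding genes the same regions had ratios of 2.71, 2.94, 1.74 and 1.24. Exon tags of the 10 genes had a ratio of 2.76 (2.28 to 3.36), beside 2.79 for all other genes, and the first over the second was 0.990 (0.818 to 1.21). Intron tags had 2.50 beside 1.24, a ratio of 2.01 (1.60 to 2.55), and without homopolymer-rich tags 1.58 (1.25 to 2.02). This contrast in introns rests in part on *Neb*: without it the ratio to other genes was 1.42 (1.06 to 1.92) with all tags and 1.12 (0.827 to 1.52), an interval that includes 1, without homopolymer-rich tags.

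**Figure D5:**
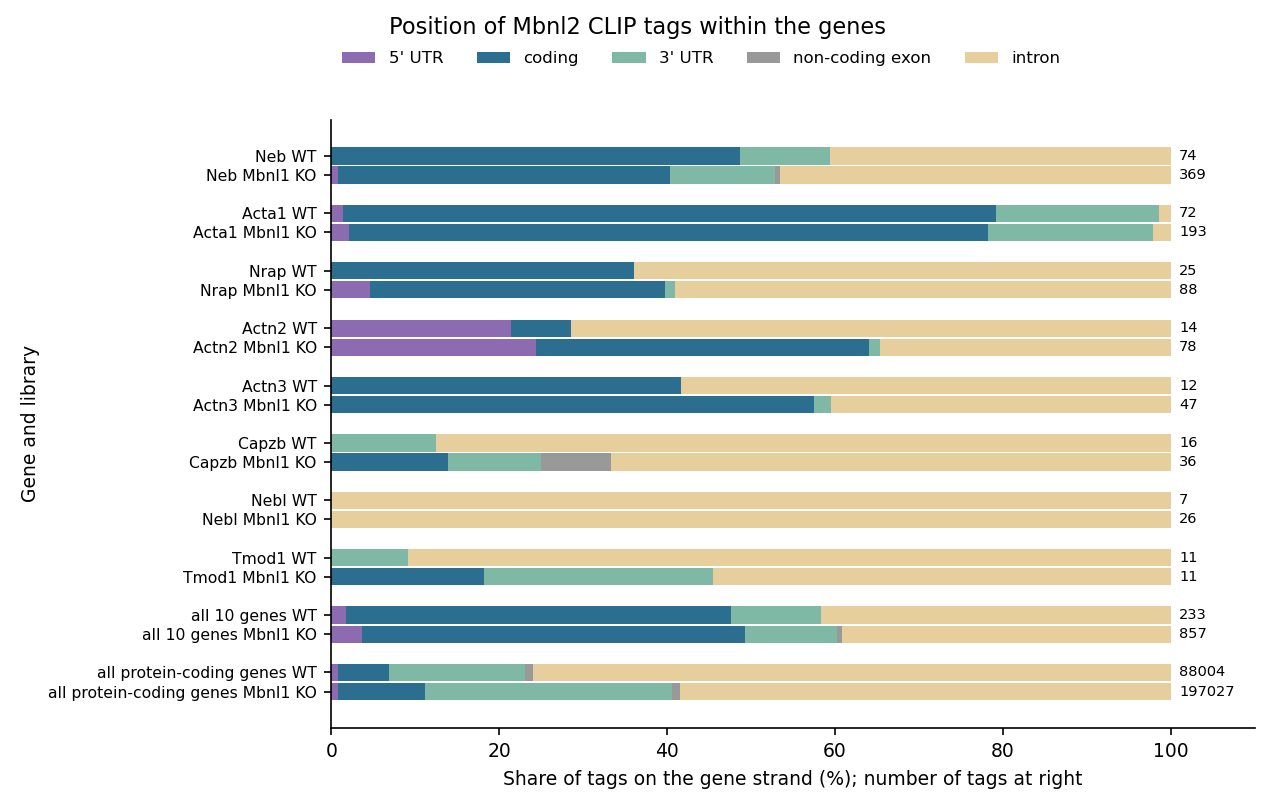
Share of tags (percent) in 5′ UTR, coding sequence, 3′ UTR, non-coding exon and intron for each gene with at least 20 tags, for all 10 genes and for all protein-coding genes, in WT and *Mbnl1* KO, with the number of tags at the right. Coding sequence holds 45.9% and 45.6% of the tags of the 10 genes in WT and *Mbnl1* KO, and 6.14% and 10.3% over all protein-coding genes.

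Across the 10 genes, tags on the opposite strand numbered 57 in WT and 53 in the *Mbnl1* KO, which is 19.7% (15.2 to 24.7) and 5.82% (4.39 to 7.55) of the tags on both strands. *Acta1* had none in either library, and *Neb* had 17 and 9. Homopolymer-rich tags numbered 6 and 9 on the gene strand. Tags of at least 2 reads made up 52.8% of the WT and 65.1% of the *Mbnl1* KO tags of the 10 genes.

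Tags on other genes of the thin filament were also more frequent in the *Mbnl1* KO library. Of a list of 30 (other actins, alpha-actinins, tropomodulins and leiomodins, capping protein subunits, cofilins, troponins, tropomyosins, kelch and Xin proteins and *Lasp1*), 29 were found in the annotation and 17 had at least 20 tags. Of these 17, 9 had an interval above 1, against the 38.6% of all genes, and 0 had one below 1, against 3.84%. A ratio of at least 2 was reached by 7 of the 17, close to the 41.7% of all genes. Without homopolymer-rich tags 7 had an interval above 1, against 26.5% of all genes. With all tags the median ratio of the 17 was 1.94, beside 1.75 over all genes with at least 20 tags. The 29 genes together had 334 WT and 1027 *Mbnl1* KO tags (2.22, 1.96 to 2.52). Among the 17 genes with at least 20 tags, *Tnnc2*, the calcium-binding troponin of fast fibres, had the highest ratio, with 5 and 38 tags (5.48, 2.15 to 17.8), and *Capza1*, an alpha subunit of capping protein, the lowest, with 10 and 14 tags (1.01, 0.417 to 2.54). Under 20 tags, the interval left out 1 for *Cfl1*, with 1 and 16 tags (11.5, 1.79 to 484), and for *Tnni1*, the troponin I of slow fibres, with 6 and 1 tags (0.120, 0.00261 to 0.990, or 0.164, 0.00312 to 2.04, without homopolymer-rich tags), both named after their values were seen.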

How the data were processed

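Mbnl2 HITS-CLIP tags of quadriceps from WT and *Mbnl1* KO mice (n = 3 each) were analysed. The authors filtered reads, aligned them to mm9 with BWA (version not given in the sources used here), dropped likely PCR duplicates and pooled the mice of a genotype, and the deposited counts give, per tag, how many reads were collapsed, not normalized. Depth was 343554 and 476543 tags.

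Tags were counted on the strand of each gene in GENCODE vM1, put into a region by their middle base (coding sequence, then 3′ UTR, 5′ UTR, non-coding exon and intron), and divided by the tags in the table, using scipy 1.17.1, numpy 2.4.6 and pandas 2.3.3 under Python 3.11.15. Figures were drawn with matplotlib 3.10.9. A tag on overlapping genes counted for each. Intervals are exact Clopper-Pearson intervals at 95%, and for a ratio of ratios those of the conditional odds ratio. They treat tags as independent and cover counting error only. No p-value was computed. A cluster is an unbroken run of tags that overlap, pooled over both libraries. The counting was tested on simulated data.

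The genes and lists were chosen with earlier results of these data known. All 10 genes were named, with the 8 clusters of the most tags and, from the wider list, the genes with the highest and lowest ratio among those with at least 20 tags, and those with an interval that left out 1 were counted. Alternatives were other scales, other tag sets, other counting rules and other minimums of tags. Leaving out *Neb* or *Acta1*, scaling to tags on protein-coding genes, leaving out tags on unplaced contigs, keeping tags with 1 genome match, the contrasts of exons with introns and between clusters, and the alternative exons were added after the data were seen. No protein sequences were used here.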

Additional observations from a re-analysis of the deposited data

How the results depend on the processing

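The summed ratio of the 10 genes stayed above 1 in all 13 alternatives, from 1.42 to 3.68. It was 3.68 with raw tags, 1.52 scaled by the median protein-coding gene, 1.84 without homopolymer-rich tags, 1.80 without these and tags on unplaced contigs, 1.69 with tags of at least 2 reads, 1.42 with both filters, 1.64 scaled to tags on protein-coding genes and 2.21 without *Neb*. The 6 genes with an interval above 1 became 2, *Neb* and *Actn2*, when scaled by the median gene (11.8% of all genes), with tags of at least 2 reads (18.7%), with both filters (11.2%) or scaled to tags on protein-coding genes (14.8%). With both filters *Actn2* (2.12) stayed only by a lower bound of 1.0006. The 6 genes became 3 without homopolymer-rich tags and unplaced contigs (24.9%), and 8, with *Lmod2* and *Capzb*, with raw tags (59.2%). With tags that match the genome exactly once they became 5, without *Nebl*. Matches were looked up only for tags on the 10 genes, so the library totals were left unchanged and no share of all genes was computed there. In the same order of raw tags, median gene, no homopolymer-rich tags, at least 2 reads and both filters, coding tags gave 3.65, 1.51, 1.80, 1.75 and 1.47, and intron tags 3.46, 1.43, 1.77, 1.57 and 1.30. The 3′ UTR ratio was 1.55 scaled by the median gene, 1.47 with tags of at least 2 reads and 1.24 with both filters, with intervals from 0.990, 0.854 and 0.717, and with both filters the intron and 5′ UTR intervals began at 0.939 and 0.868. The *Mbnl1* KO 3′ UTR share was 8.40% when tags that start at the same base were collapsed. The median of all genes was 1.00 by construction when scaled by itself and 1.08 scaled to tags on protein-coding genes. The *Acta1* 3′ UTR cluster turned to 0.992 (0.381 to 3.04) with both filters. Values with an interval that includes 1 when all tags count also fell below 1 under some alternatives, to as low as 0.557 for the *Acta1* exon 7 cluster, 0.627 for the exon 6 cluster, 0.801 for *Capzb* and 0.620 for *Tmod4*. The ratio of *Neb* stayed between 1.82 and 4.99 with every interval above 1. Beyond the scale itself, the cause of these shifts was not tested. No paired analysis was possible because each genotype is 1 merged table. Genes with few tags were limited by depth, and the merged tables give no spread between mice.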
